A study of Homo sapiens with 6 samples.

Results

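The genes described here build, load and empty the endoplasmic reticulum (ER), the compartment where secreted and membrane proteins are made. They encode the protein-conducting channel, the folding enzymes, the disposal machinery, the sensors of misfolded protein and the COPII and COPI vesicle coats. The list names 48 genes, of which 45 were measured by 127 of the 41091 probe sets whose annotation gives 1 gene symbol alone. SEC61G and KDELR2 had no such probe set, and SYVN1 was annotated only together with another symbol, so these 3 genes have no value here. The remaining 45 belong to 19775 genes measured in all. They were chosen with results of the comparison known, so their differences between the lines are given as a description and are not evidence about the list.

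Expression was measured in PC-3/Mc and PC-3/S, both derived from PC-3, an established human prostate carcinoma line that grew from a bone metastasis. Each line was represented by 3 arrays, labelled as biological replicates, of cells harvested before confluence, and the labels name no treatment. The study's published account describes both lines as clonal, so each stands for 1 clone, and differences between clones and between cell states cannot be told apart. Unless stated otherwise, values are log2 expression values of the brightest probe set of a gene, means carry the SD of n = 3 arrays, and a difference is given as PC-3/Mc minus PC-3/S with ± SE. A difference is called where its adjusted p was under 0.05 in a limma fit of all 19775 genes.

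Array medians lay between 4.98 and 5.09, and correlations between arrays were 0.995 to 0.997 within a line and 0.949 to 0.953 between lines. For GAPDH, the 3′ control minus the 5′ control, which grows with RNA degradation, was -0.08 to 0.04 in PC-3/Mc against 0.01 to 0.07 in PC-3/S. Of 5 markers of prostate carcinoma epithelium, the keratins KRT8, KRT18 and KRT19 were bright in both lines, with KRT18 higher in PC-3/Mc (12.48 ± 0.13 against 11.32 ± 0.01 in PC-3/S) and KRT19 lower (11.28 ± 0.07 against 11.76 ± 0.03 in PC-3/S). The adhesion gene EPCAM was 43.3-fold higher in PC-3/Mc, at 11.88 ± 0.19 against 6.44 ± 0.22 in PC-3/S. CDH1 (E-cadherin) averaged 7.67 ± 0.19 in PC-3/Mc, against 3.91 to 4.07 in PC-3/S, which is in the background range defined next. CTNNA1, which PC-3 is known to have lost, read up to 5.18, and readings up to that value are treated as possibly background. Of 4 blood cell markers, PTPRC, CD3E and CD14 averaged at most 4.83, and HBB was above background at 5.43 ± 0.08 in PC-3/Mc against 5.66 ± 0.11 in PC-3/S. The endothelial marker PECAM1 averaged 7.18 ± 0.04 in PC-3/Mc against 6.58 ± 0.09 in PC-3/S, and the stromal COL1A1 7.39 ± 0.15 against 7.67 ± 0.05. KDR (6.23 ± 0.21), COL3A1 (6.21 ± 0.27) and DCN (5.33 ± 0.06) averaged above background in PC-3/S alone, and DES in both lines. CDH5, VWF, TEK and PDGFRB averaged in the background range in both. Of 14 measured markers of blood, endothelial and stromal cells, 4 were called lower in PC-3/Mc and 2 higher, and their part in the results below was not tested. Less RNA per cell and fewer cells expressing a gene cannot be told apart in such bulk samples.

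A secreted protein enters the ER through the SEC61 channel while it is being made. Lectin chaperones and disulfide isomerases then fold it, COPII vesicles carry it towards the Golgi, and COPI vesicles bring escaped ER residents back. When unfolded chains accumulate, the sensors IRE1, ATF6 and PERK start the unfolded protein response, a programme that raises transcription of chaperones, disposal factors and transport genes. Secretory tumor cells are known to rely on it.

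Most of the list was lower in PC-3/Mc. Of 45 genes, 28 (62.2%) were called lower, 4 (8.89%) higher and 13 not called, where 22.7% of all genes were called lower and 23.2% higher (45.9% either way). Because 44 of the 45 reached the median level of all genes, 5.98, and bright genes are called more often, the shares among the 9888 genes at or above that level are also given: 31.3% lower and 38.9% higher (70.2% either way). The median difference was -0.45, against -0.03 over all genes. Differences of at least 2-fold were called for 7 genes, all lower in PC-3/Mc, beside 5.58% of all genes lower and 5.88% higher by that much. For 34 of the 45 the 2 sets of arrays were fully separate, 29 lower and 5 higher, as for 53.1% of all genes (26.8% lower and 26.3% higher). Since the genes were chosen with this comparison in view, nothing is read from these counts or from the counts by role below. The shares of all genes given here stand beside those as well.

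**Figure D1:**
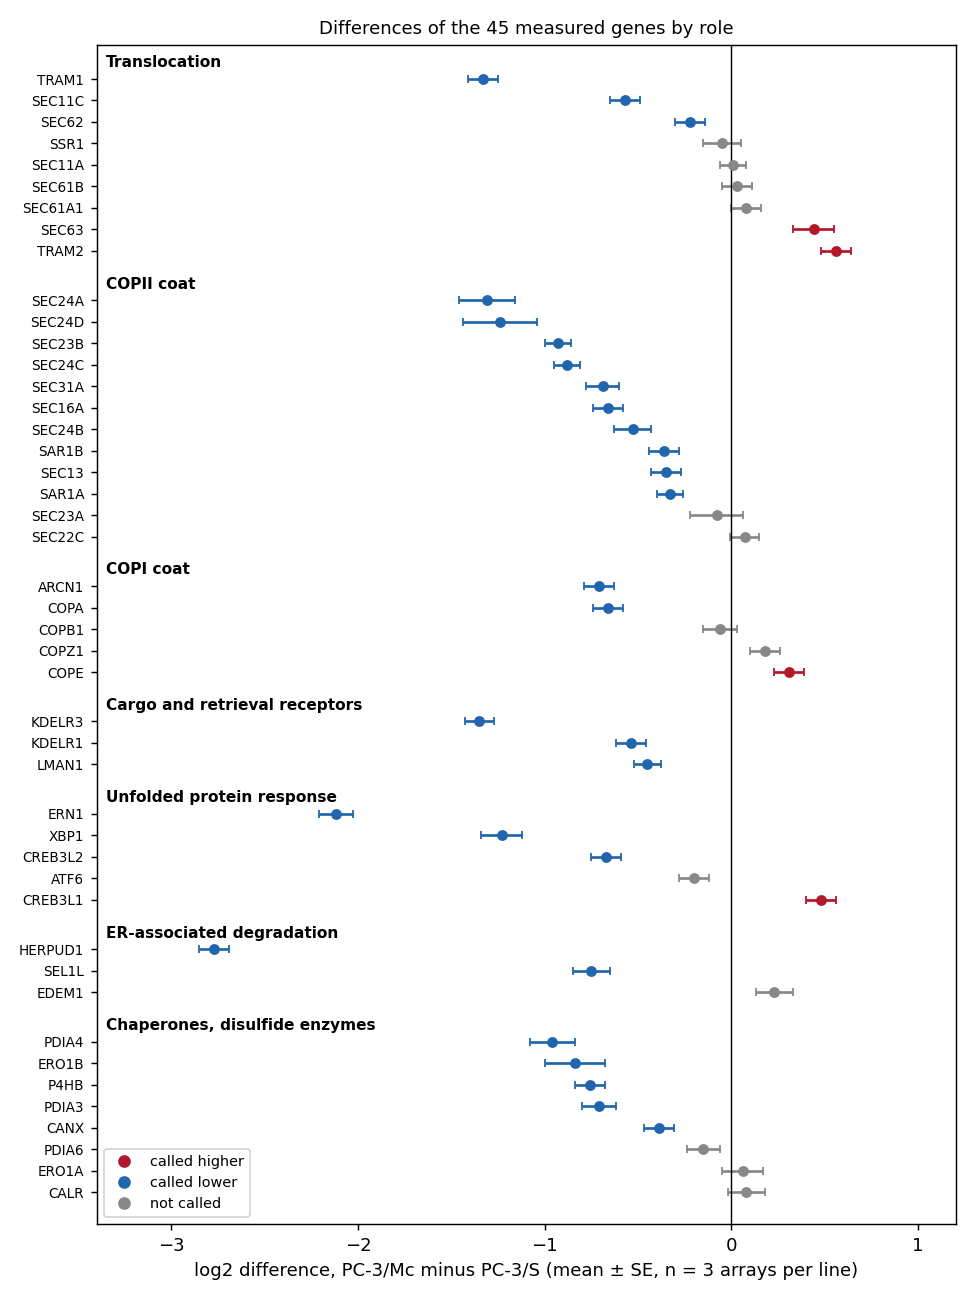
Log2 difference of each measured gene, PC-3/Mc minus PC-3/S (points) with its SE (bars), n = 3 arrays per line, grouped by role. Blue points were called lower in PC-3/Mc (28), red points higher (4) and grey points were not called (13). HERPUD1 (-2.77) and ERN1 (-2.12) lie farthest from 0, and the red points are SEC63, TRAM2, COPE and CREB3L1.

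The sensors and transcription factors of the unfolded protein response differed among themselves, with 3 of 5 genes called lower, 1 higher and 1 not called. ERN1 encodes IRE1, the sensor kinase whose ribonuclease cuts XBP1 mRNA. It read 6.80, 6.82 and 6.63 on the PC-3/Mc arrays and 8.87, 8.77 and 8.97 on those of PC-3/S, which lay well apart. The difference of -2.12 ± 0.09 corresponds to a level 4.34-fold lower in PC-3/Mc. Its other 2 probe sets were also called lower but by less, at -1.28 ± 0.10 (2.43-fold) and -0.43 ± 0.12 (1.35-fold), and the mean of the probe sets gave -1.28. XBP1, the transcription factor activated by that cut, read 8.38, 8.49 and 8.31 in PC-3/Mc against 9.64, 9.40 and 9.84 in PC-3/S. Its arrays did not overlap either, and it was 2.35-fold lower in PC-3/Mc (-1.23 ± 0.11), or -0.52 when averaged with its second probe set, which read in the background range. The sources used here do not give whether the probe set detects the cut or the uncut mRNA.

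ATF6, the membrane-bound factor released by proteolysis in the Golgi, was not called on its brightest probe set. Its values were 8.46, 8.35 and 8.46 in PC-3/Mc against 8.68, 8.63 and 8.56 in PC-3/S, so all PC-3/Mc arrays lay below all PC-3/S arrays by a small margin (-0.20 ± 0.08). Of its other 3 probe sets, 2 were called lower, by -1.01 ± 0.09 and -1.0 ± 0.13. The ATF6 relatives CREB3L1 and CREB3L2, which are anchored in the same membrane, differed in opposite directions. CREB3L2 was called lower (-0.67 ± 0.08). CREB3L1 was called higher, at 7.25 ± 0.04 in PC-3/Mc against 6.77 ± 0.04 in PC-3/S.

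Of the 3 disposal genes, 2 were called lower, and on its brightest probe set HERPUD1 had the largest difference of the 45. The gene encodes an ER membrane protein that helps assemble the disposal complex (ER-associated degradation) and is a known target of the unfolded protein response. Its values were 10.12, 10.07 and 10.03 in PC-3/Mc against 12.84, 12.78 and 12.92 in PC-3/S. The lines were separated by many times the spread between replicates, and HERPUD1 was 6.82-fold lower in PC-3/Mc (-2.77 ± 0.08). That size rests on 1 probe set of the _s_at kind. The other, dimmer one was called lower at -0.67 ± 0.09, with PC-3/Mc in the background range (4.91 ± 0.10, against 5.58 ± 0.10 in PC-3/S). As measured that is less than the difference of ERN1 or KDELR3, but background limits its size, so no fold is given. The mean of both probe sets, -1.72, has the same limit. SEL1L, the scaffold that links the disposal ligase to its substrates, was called lower on all 4 of its probe sets, by -0.75 ± 0.10 on the brightest. EDEM1, which marks misfolded glycoproteins by trimming mannose, had a difference of 0.23 ± 0.10 and was not called.

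ATF6 and XBP1 are known to act through short promoter elements, and 7 promoter stretches with an exact match are shown because they belong both to genes that differed strongly and to genes that were not called. RefSeq promoter windows (GRCh38.p14, from 250 bases before to 50 after a start site) were found for 44 of the 48 genes. They were searched on both strands for the ER stress response element ERSE (CCAAT and CCACG at a fixed spacing), for its variant ERSE-II (ATTGG and CCACG, more closely spaced) and for the XBP1 and ATF6 site UPRE (TGACGTGG). The letters CCACG are part of all 3 motifs, for the UPRE in its reverse complement. Exact ERSE matches were found in CALR, CANX, ERO1B, PDIA6 and XBP1, while 0.0916% of all 27305 genes with a window held one. HERPUD1 held an ERSE-II match (0.0696% of all such genes). Exact UPRE matches occurred in COPA, COPB1, KDELR3, SEC16A, SEC23A, SEC24A and SEC62 (0.927% of all such genes). The UPRE stretches shown, of KDELR3 and SEC24A, both belong to genes called lower. Those of COPB1, which was not called, and SEC62 are not shown, nor is the ERSE stretch of ERO1B. In the lines that follow, bases before the start site are written 5′ to 3′ on the strand of the gene, and the match is in capitals. A match on the opposite strand reads as its reverse complement.
HERPUD1: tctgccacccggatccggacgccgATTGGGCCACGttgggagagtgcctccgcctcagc
XBP1: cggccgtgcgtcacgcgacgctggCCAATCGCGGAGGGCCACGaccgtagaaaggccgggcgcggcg
CANX: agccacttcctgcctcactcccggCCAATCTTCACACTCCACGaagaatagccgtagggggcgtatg
PDIA6: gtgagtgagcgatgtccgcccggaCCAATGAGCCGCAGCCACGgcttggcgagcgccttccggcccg
CALR: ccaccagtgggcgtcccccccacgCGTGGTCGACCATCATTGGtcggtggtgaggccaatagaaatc
KDELR3: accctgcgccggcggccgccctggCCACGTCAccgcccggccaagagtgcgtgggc
SEC24A: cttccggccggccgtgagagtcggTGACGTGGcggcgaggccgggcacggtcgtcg

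The stretch of HERPUD1 lies at chr16:56932001-56932059 on the plus strand, with the match starting 117 bases before the start site. That of XBP1 is at chr22:28800579-28800645 on the minus strand, and its ERSE starts 52 bases before the start site. The CANX stretch is at chr5:179698754-179698820 (plus strand) and the PDIA6 stretch at chr2:10812829-10812895 (minus strand). CALR (chr19:12938360-12938426, plus strand) carries its ERSE in the opposite orientation. KDELR3 (chr22:38468026-38468081, plus strand) has a UPRE in the opposite orientation, and SEC24A (chr5:134648582-134648637, plus strand) has one in the same orientation as the gene. Genes with an exact ERSE ranged from CALR (0.08 ± 0.10) and PDIA6 (-0.15 ± 0.09), neither of them called, through CANX (-0.39) to XBP1 (-1.23). Among genes with a UPRE, KDELR3 and SEC24A differed by more than 2-fold, and COPB1 (-0.06) and SEC23A (-0.08) were not called. In all, 13 measured genes held a match, of which 9 were called lower, 0 higher and 4 not called. Of all 45 genes 62.2% were called lower, and of all genes measured 22.7%. The 9 include ERO1B, which read in the background range, and SEC62, whose call was not stable. Nothing is read from this count about the motifs. A match is a description of the letters, not evidence of binding in these cells.

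Chaperones and disulfide enzymes gave 5 genes lower, 0 higher and 3 not called of 8, where 22.7% of all genes were called lower and 23.2% higher. PDIA4, a disulfide isomerase, read 9.51, 9.33 and 9.21 in PC-3/Mc against 10.56, 10.17 and 10.21 in PC-3/S. The arrays did not overlap, and PDIA4 was 1.94-fold lower in PC-3/Mc (-0.96 ± 0.12). P4HB, an isomerase that is also a subunit of collagen prolyl 4-hydroxylase, was lower at -0.76 ± 0.08, and PDIA3, the isomerase that works with calnexin and calreticulin, by -0.71 ± 0.09. All 3 probe sets of each of these 2 genes were called lower. PDIA6 was not called on its brightest probe set (-0.15 ± 0.09), although its other 3 probe sets were, at -0.25 to -0.28.

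Calnexin (CANX), one of the pair of lectin chaperones, read 11.63, 11.60 and 11.63 in PC-3/Mc against 12.12, 11.97 and 11.92 in PC-3/S, a separation of 1.31-fold (-0.39 ± 0.08). The next brightest CANX probe sets were not called (-0.26 ± 0.10 and -0.16 ± 0.09), and a dimmer one was called lower (-0.46 ± 0.10). The soluble counterpart of calnexin, calreticulin (CALR), read 9.83, 9.70 and 9.86 in PC-3/Mc against 9.69, 9.57 and 9.91 in PC-3/S. These values overlapped and the difference of 0.08 ± 0.10 was not called. Its sign was not stable, since a dimmer CALR probe set was called lower at -0.33 ± 0.11. Another dimmer one had 0.41 ± 0.23 and was not called. The oxidases ERO1A and ERO1B reoxidise the isomerases. ERO1A had a difference of 0.06 ± 0.11 and was not called. A dimmer ERO1A probe set was called higher (0.25 ± 0.08) and another was not called (0.01 ± 0.09). ERO1B read 3.72, 3.77 and 4.18 in PC-3/Mc against 5.0, 4.43 and 4.76 in PC-3/S. It was called lower, but both lines lay in the range treated as background, so no fold is given.

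**Figure D2:**
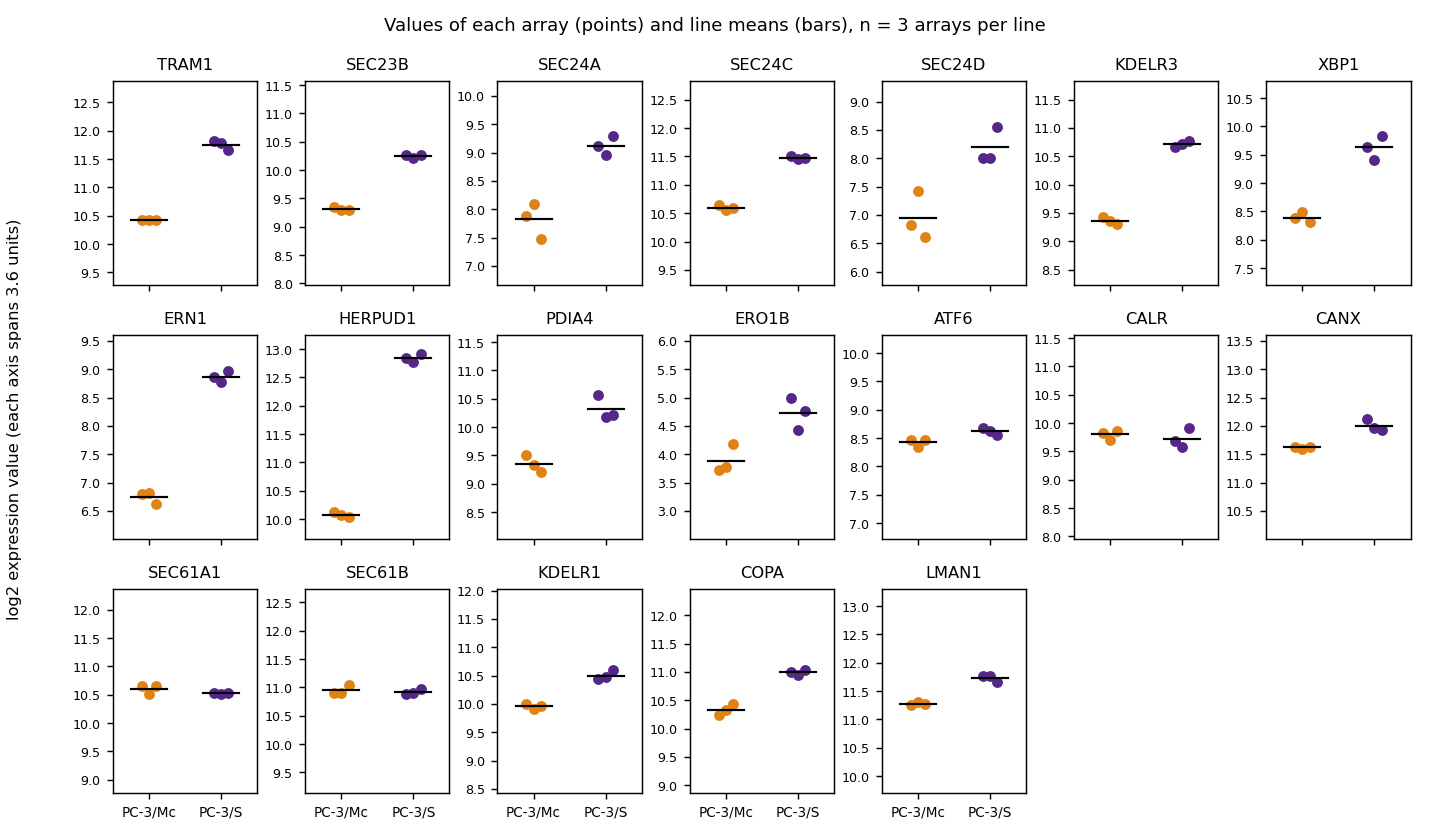
Log2 expression values of each array for genes called with an absolute difference of at least 0.8 and for a set of genes shown whatever their values. Orange points are PC-3/Mc, purple points PC-3/S, bars are means, and n = 3 arrays per line. HERPUD1, ERN1 and KDELR3 are widely separated, while CALR, SEC61A1 and SEC61B overlap between the lines.

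The COPII coat, which forms the vesicles leaving the ER, was lower in PC-3/Mc for 10 of 12 genes, with 0 higher and 2 not called, a median of -0.60. Of all genes 22.7% were called lower, and 31.3% of those at or above the median level. For the 12 genes quantile normalization and median centring gave the same numbers of calls. SEC24 subunits form the inner coat and select cargo, and all 4 paralogs were called lower. SEC24A read 7.88, 8.09 and 7.47 in PC-3/Mc against 9.12, 8.96 and 9.29 in PC-3/S. Its 3 probe sets were lower at -1.31 to -1.97, and on the brightest it was 2.48-fold lower. SEC24D read 6.82, 7.42 and 6.61 in PC-3/Mc against 8.0, 8.0 and 8.55 in PC-3/S. Its replicates varied most of all the genes shown, with an SE of 0.20 on a difference of -1.24, but the arrays did not overlap. SEC24C read 10.65, 10.55 and 10.60 in PC-3/Mc against 11.51, 11.46 and 11.48 in PC-3/S, a tight separation of 1.85-fold (-0.88 ± 0.07). SEC24B differed least of the 4 (-0.53 ± 0.10).

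SEC23 proteins pair with SEC24 and switch off the SAR1 GTPase. SEC23B read 9.35, 9.29 and 9.30 in PC-3/Mc against 10.26, 10.22 and 10.26 in PC-3/S, and was 1.91-fold lower (-0.93 ± 0.07). Its paralog SEC23A averaged 10.19 ± 0.30 in PC-3/Mc against 10.26 ± 0.15 in PC-3/S. Those values overlapped and were not called on either of its 2 probe sets. SEC31A and SEC13, which build the outer cage, were lower at -0.69 ± 0.09 and -0.35 ± 0.08. SEC16A, the scaffold of ER exit sites, was lower at -0.66 ± 0.08.

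SAR1A and SAR1B, the GTPases that start coat assembly, were lower at -0.33 ± 0.07 and -0.36 ± 0.08. For SAR1A the probe sets disagreed, with another called higher (0.32 ± 0.08). SEC22C, a relative of a vesicle fusion protein, was not called (0.07 ± 0.08), while 2 of its dimmer probe sets were called higher.

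Receptors that sort cargo and recover ER residents were lower for 3 of 3 genes, where 22.7% of all genes were called lower. KDELR3, one of the receptors that return proteins ending in the KDEL signal, read 9.42, 9.35 and 9.31 in PC-3/Mc against 10.66, 10.71 and 10.76 in PC-3/S. It was 2.55-fold lower (-1.35 ± 0.08), with all 3 probe sets called. KDELR1 averaged 9.96 ± 0.05 in PC-3/Mc against 10.43, 10.47 and 10.60 on the PC-3/S arrays, which was 1.45-fold lower without overlap. The 2 paralogs thus stood apart by different amounts, and the difference between their differences was not tested. LMAN1, a lectin that carries glycoproteins including clotting factors out of the ER, read 11.26, 11.30 and 11.27 in PC-3/Mc against 11.76, 11.76 and 11.66 in PC-3/S (-0.45 ± 0.07). Of the dimmer LMAN1 probe sets, one was called lower (-0.43 ± 0.09) and the other was not called (-0.22 ± 0.10).

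COPI subunits did not differ as a block. COPA, the alpha subunit, read 10.23, 10.33 and 10.44 in PC-3/Mc against 10.95 to 11.04 in PC-3/S, and was 1.58-fold lower. ARCN1, the delta subunit, was lower at -0.71 ± 0.08. COPE, the epsilon subunit, was called higher, at 9.70 ± 0.07 in PC-3/Mc against 9.40 ± 0.01 in PC-3/S. COPB1 (-0.06 ± 0.09) and COPZ1 (0.18 ± 0.08) were not called.

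Of 9 translocation genes, 3 were called lower (33.3%), 2 higher (22.2%) and 4 not called. Beside that stand 22.7% lower and 23.2% higher of all genes, and 31.3% and 38.9% of genes at or above the median level. The median of the 9 was 0.01 and turned to -0.05 after quantile normalization. The channel itself showed little difference. SEC61A1, the pore subunit, read 10.65, 10.52 and 10.65 in PC-3/Mc against 10.53, 10.51 and 10.54 in PC-3/S, and these values overlapped. SEC61B read 10.90, 10.91 and 11.05 in PC-3/Mc against 10.88, 10.91 and 10.98 in PC-3/S, again with overlap. Their differences were 0.08 ± 0.08 and 0.03 ± 0.08, neither of them called, and the sign for SEC61B turned to -0.03 after quantile normalization.

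TRAM1 and TRAM2 are related membrane proteins of the translocation site. TRAM1 read 10.43, 10.42 and 10.42 in PC-3/Mc against 11.81, 11.78 and 11.66 in PC-3/S. It was 2.51-fold lower (-1.33 ± 0.08) with all 3 of its probe sets called lower. TRAM2 went the other way on all 3 of its probe sets, at 9.16 ± 0.04 in PC-3/Mc against 8.60 ± 0.05 in PC-3/S. SEC63, which recruits the chaperone BiP to the channel, was called higher (0.44 ± 0.11).

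SEC62, its partner, was called lower by a small amount (-0.22 ± 0.08), a call that missed the threshold in the fit of all probe sets, after median centring and without any 1 of the 6 arrays. A dimmer SEC62 probe set was called higher (0.43 ± 0.12). The catalytic subunits of signal peptidase, which removes signal sequences, also differed. SEC11C was called lower (-0.57 ± 0.08), and SEC11A was not called (0.01 ± 0.07).

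Other genes of the same pathway were listed by textbook role. Earlier results of these data were known by then, so the counts of these genes are a description and not evidence. Of 162 listed, 156 were measured, and 81 (51.9%) were called lower, 25 (16%) higher and 50 not called. Beside that stand 22.7% lower and 23.2% higher of all genes, and 31.3% and 38.9% of genes at or above the median level. The same shares stand beside the counts by list below. The median difference of the 156 was -0.25. Adjusted p-values below are from limma with Benjamini-Hochberg adjustment over all genes. HSPA5 encodes BiP, the main ER chaperone and a standard marker of the response. It read 11.92, 12.13 and 11.94 in PC-3/Mc against 13.26, 13.26 and 13.48 in PC-3/S, 2.52-fold lower (adjusted p = 7e-07). DNAJB9, a BiP cochaperone induced through XBP1, averaged 7.84 ± 0.17 in PC-3/Mc against 11.09 ± 0.14 in PC-3/S, 9.51-fold lower (adjusted p = 2.1e-09). HSP90B1, the ER form of the HSP90 chaperone, was lower at -0.78 ± 0.08 (adjusted p = 1.1e-05).

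**Figure D3:**
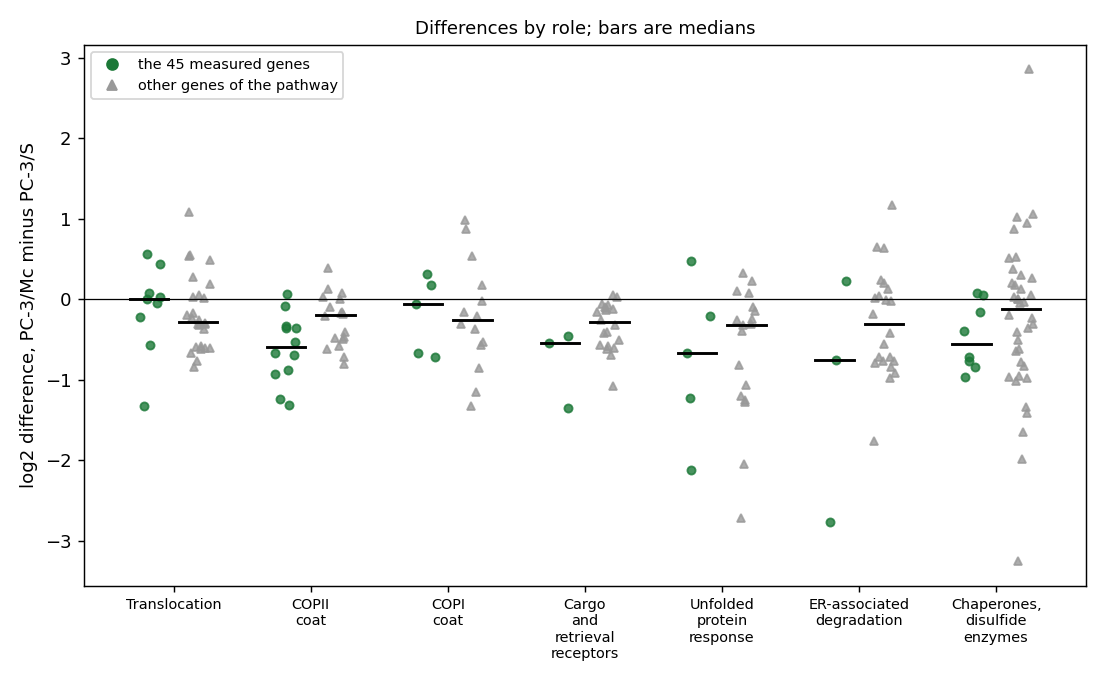
Log2 differences, PC-3/Mc minus PC-3/S, of the 45 measured genes (green circles) and of 156 other genes of the pathway (grey triangles) by role. Bars are medians. DNAJB9 (-3.25) and FKBP11 (2.86) are the lowest and highest triangles, both in the group of chaperones and disulfide enzymes.

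In the branch of the response that runs through PERK and ATF4, the apoptosis-linked factor DDIT3 (CHOP) read 8.76, 8.64 and 8.64 in PC-3/Mc against 10.91, 10.55 and 10.70 in PC-3/S. It was 4.12-fold lower (adjusted p = 4.3e-08). CHAC1, a glutathione-degrading enzyme downstream of ATF4, was 6.61-fold lower (adjusted p = 2.2e-09). ATF4 itself was lower at -0.25 ± 0.07 (adjusted p = 0.015), and this did not pass the threshold after centring arrays on their medians (adjusted p = 0.067) or without PC-3/S replicate 1 (adjusted p = 0.068). DNAJC3, which binds BiP and damps the response, was lower at -1.28. The proteases that release ATF6, MBTPS2 (0.33) and MBTPS1 (0.23), were higher, and the MBTPS1 call was lost after quantile normalization (adjusted p = 0.15) and without any of 4 arrays in turn, PC-3/Mc replicate 1 or 2 or PC-3/S replicate 1 or 2 (adjusted p = 0.062 to 0.11). In this list 11 of 18 were lower and 2 higher.

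Of the remaining chaperones and folding enzymes, 18 of 38 were lower and 10 higher. SERPINH1, the collagen chaperone HSP47, was lower at -1.98 and the prolyl isomerase FKBP14 by -1.65. Against that direction FKBP11, another prolyl isomerase of secretory cells, was 7.26-fold higher in PC-3/Mc, at 10.11 ± 0.08 against 7.25 ± 0.06 in PC-3/S (adjusted p = 6.4e-10). DNAJC1 (1.06) and the calcium-binding RCN1 (1.03) were higher as well. Disposal genes were lower for 11 of 22 and higher for 4. The glycoprotein ubiquitin ligase subunit FBXO6 (-1.76), HERPUD2 (-0.98) and the ligase RNF139 (-0.92) were lower, and the deglycosylating enzyme NGLY1 (1.17), UBE2J1 (0.65) and EDEM3 (0.64) higher. Without _x_at and _s_at probe sets the NGLY1 difference was 0.36.

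Translocation and glycosylation genes outside the list above were lower for 15 of 26 and higher for 5. SRP54, the GTPase of the signal recognition particle (-0.84), its receptor subunit SRPRA (-0.77) and SSR2 (-0.66) were lower. The other receptor subunit SRPRB (0.54) and the oligosaccharyltransferase subunits TUSC3 (1.09, and 1.68 without _x_at and _s_at probe sets) and STT3B (0.55) were higher. Cargo receptors gave 11 of 20 lower and 0 higher, among them ERGIC3 (-1.07), RER1 (-0.69) and TMED2 (-0.62). ERGIC3 rests on 1 probe set, since its other 2 read in the background range, with 0.13 on the brighter of them.

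Of further COPII and ER-to-Golgi genes, 8 of 18 were lower and 1 was higher. The GTPase RAB1B (-0.80), the fusion protein BET1 (-0.72) and SEC22A (-0.62) were lower, and MIA2 (0.39) was higher, a difference of -0.004 without _x_at and _s_at probe sets. COPI and Golgi-to-ER genes gave 7 of 14 lower and 3 higher. COPZ2 was lower at -1.32 as measured, at least 2.37-fold because PC-3/Mc read in the background range, and ARFGAP3 by -1.15. COPG1 was higher by 0.54, and that call was lost without PC-3/Mc replicate 1, PC-3/S replicate 2 or PC-3/S replicate 3 (adjusted p = 0.052 to 0.067). BNIP1, USE1 and STX18 belong to 1 fusion complex at the ER, yet BNIP1 was lower (-0.85) and USE1 (0.99) and STX18 (0.87) were higher.

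Several probe sets measured most of the 45 genes, so their agreement could be examined. With probe sets kept where the mean of at least 1 line was above the background reading, 34 genes had more than 1. For 22 of them every probe set had a negative difference and for 7 every one a positive difference. In the other 5 (CALR, COPZ1, SAR1A, SEC62 and SSR1) the signs were mixed, and opposed calls occurred for SAR1A alone. A probe set above background in 1 line alone has its sign fixed by this rule, so these counts only describe. Such probe sets occurred through PC-3/S for COPA, HERPUD1, KDELR3, SAR1B, SEC11C, SEC24A and SEL1L, and through PC-3/Mc for CREB3L1 and SEC63. Over all 127 probe sets, 72 were called lower and 16 higher in PC-3/Mc, beside 20.0% and 21.7% of all 41091 probe sets.

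**Figure D4:**
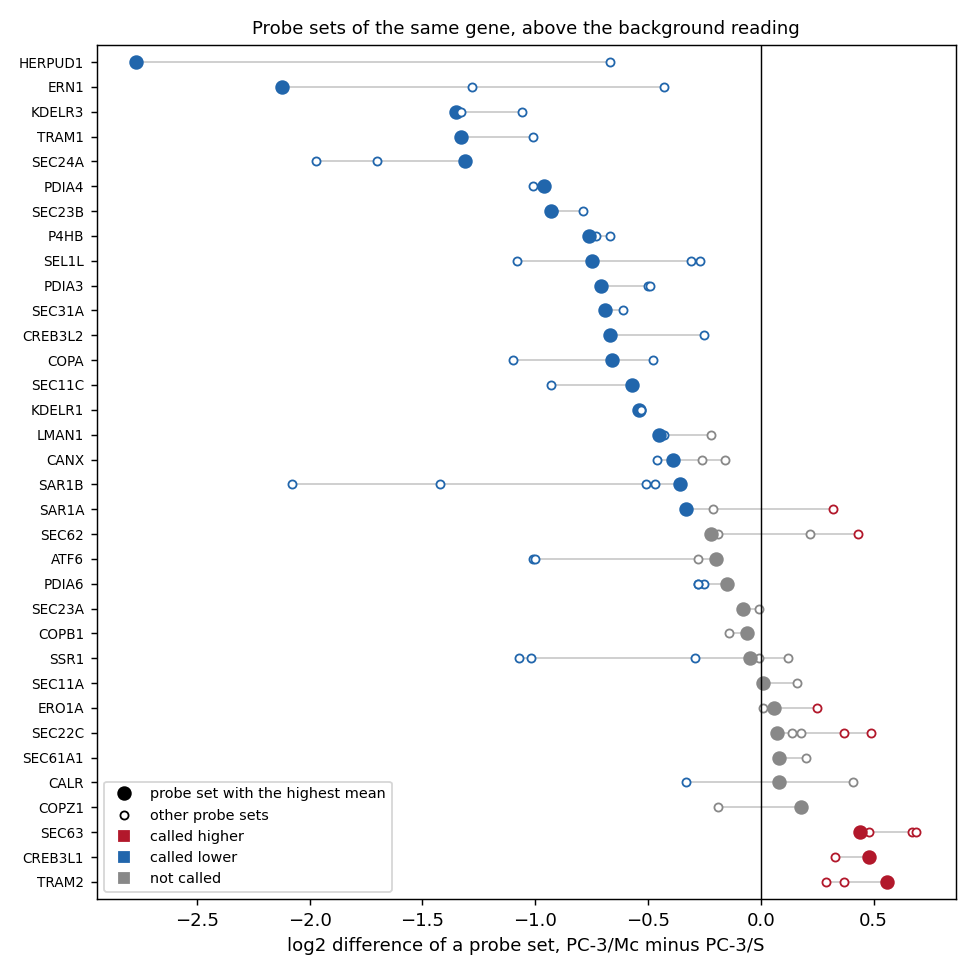
Log2 differences, PC-3/Mc minus PC-3/S, of probe sets above the background reading in at least 1 line, for the 34 genes that have more than 1. Large filled points are the brightest probe set of a gene, small open points the others, coloured by call in the fit of all probe sets, where SEC62 missed the threshold. The points of SAR1B, ERN1, HERPUD1 and SSR1 are the most spread, and those of KDELR1, PDIA4 and SEC31A the closest among genes called on every probe set.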

How the data were processed

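The authors deposited a table of log2 expression values with 54675 probe sets for 6 one-colour arrays, with no other sample columns. The sources used here do not give the background correction, summarisation or normalization. The base was settled from the values, whose highest (14.45) equals a linear signal of 22358 at base 2. Values were not centred per gene. Their between-array scaling target stays unknown, so each difference is relative to the other probe sets. Probe sets with 1 symbol in the platform annotation were used, and each gene was represented by its brightest (10523 genes had several). Names ending in _s_at or _x_at mark probe sets that can match several transcripts.

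Lines were taken from the sample titles. They were compared with limma 3.58.1 in R 4.3.3 (lmFit, eBayes, two-sided, Benjamini-Hochberg), and the fit was tested on simulated data. The number of arrays limits the precision (median SE 0.092). The labels call the replicates biological but do not say whether they are separate cultures. The p-values thus cover only array-to-array spread, of unstated origin, within 1 clone per line. Genes, lists and the background reading (CTNNA1) were chosen with earlier results of these data known. Values of each array are given for genes called with an absolute difference of at least 0.8 and for 10 fixed genes. From each pathway list up to 3 called genes per direction with the largest difference, reaching the median level in the higher line, are named. COPZ2 and SERPINH1 reached it in PC-3/S alone and MIA2 in PC-3/Mc alone. HSPA5, HSP90B1, DNAJB9, ATF4 and DDIT3 are named whatever their values. Alternatives were 2 normalizations, 2 probe set rules, a filter, an intensity trend, a replicate block and leaving out each array.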

Additional observations from a re-analysis of the deposited data

How the results depend on the processing

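Counts of called genes, over the 45 genes, the 156 pathway genes and all genes, stayed within 1.5 times under every alternative run. The 28 genes called lower became 23 when _x_at and _s_at probe sets were dropped and 30 with an intensity trend, and the median difference of -0.45 moved to -0.50 after quantile normalization and to -0.52 with the mean of all probe sets. Leaving out 1 array gave 27 genes lower each time and 4 to 5 higher, medians of -0.49 to -0.44, and 73 to 82 pathway genes lower. Signs turned for CALR after quantile normalization (-0.03) and without _x_at and _s_at probe sets (-0.33), and for SEC61B after quantile normalization (-0.03) and with the mean of probe sets (-0.12). Without 1 array CALR ran from -0.0022 to 0.17 and SEC61B from -0.02 to 0.06. Without _x_at and _s_at probe sets MIA2 (-0.004) and ERGIC3 (0.13) turned as well, each on a dimmer probe set. ATF6 was called under 4 alternatives, after quantile normalization (-0.30), with the mean of probe sets (-0.62), with the dimmest 40% of genes filtered out (-0.20, limma adjusted p = 0.03) and with an intensity trend (-0.20, adjusted p = 0.036). The cause of these changes was not tested. Same-numbered arrays of the 2 lines did not deviate together (correlations -0.38 to -0.02), while differently numbered ones gave -0.13 to 0.34. Deviations from a mean of 3 arrays constrain each other, so these values cannot settle whether arrays are paired. With a replicate block 27 genes were called lower and 4 higher, and 77 and 22 pathway genes. MBTPS1 lost its call under the block (0.23, adjusted p = 0.074). Signal near background limits ERO1B and the dimmer probe sets.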

Other observations

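Probe sets of the same gene differed by up to 2.10 on the log2 scale, for HERPUD1, whose dimmer one read in the background range in PC-3/Mc. The splits of SAR1B, SSR1 and ATF6 are given here as values. For SAR1B, the GTPase that starts COPII assembly, 1 probe set read 7.64, 7.70 and 7.5 in PC-3/Mc against 9.73, 9.65 and 9.71 in PC-3/S. That probe set was 4.24-fold lower. A dimmer one was lower by -1.42, with PC-3/Mc in the background range (4.87 ± 0.28), whereas the other 3 were lower by -0.36 to -0.51. SSR1, a subunit of the complex that assists translocation, had a pair of probe sets lower by -1.07 and -1.02, with a lower call at -0.29 on another and 3 not called at -0.05 to 0.12. On the first of these PC-3/Mc read 7.91, 7.98 and 7.79 and PC-3/S 8.99, 8.92 and 8.98. ATF6 likewise had 2 probe sets near -1.0 and 2 at -0.20 and -0.28. The sources used here do not give which parts of the transcripts they cover.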
